A study of Mus musculus with 3 samples.

Results

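Genes of heme breakdown, iron storage and iron handling were followed in mouse aortic endothelial cells exposed to an enzyme that makes hydrogen peroxide. They are Hmox1, Blvrb, Fth1, Ftl1, Ncoa4, Tfrc, Slc11a2, Slc40a1, Aco1 and Ireb2. Members were taken by gene symbol, and all 10 of 10 were found among the 18287 listed genes. The cells were a purchased primary culture of the lining of the mouse aorta, and stranded libraries were made from their polyadenylated RNA. There were 3 groups with 1 library each. The first was labelled control. The second received glucose oxidase at 5 mU/mL for 30 min; this enzyme oxidises glucose and releases hydrogen peroxide. The third received the same glucose oxidase exposure and 0.2 mM ethyl-2-hydroxybenzylamine (Et2HOBA) for 24 h, a scavenger of isolevuglandins, which are reactive products of lipid oxidation. The labels give neither the order of the exposures nor the time from glucose oxidase to harvest. None of the 3 libraries had Et2HOBA alone. The series title sets the question as one of isolevuglandin formation and immune activation under oxidant load.

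Heme oxygenase opens the heme ring and releases iron, carbon monoxide and biliverdin, and biliverdin reductases turn the pigment into bilirubin. Freed iron is stored in ferritin, a shell of heavy and light chains, or leaves the cell through ferroportin, while the transferrin receptor brings iron in. Iron regulatory proteins bind a hairpin, the iron responsive element, in mRNAs of this pathway: in the 5′ untranslated region the bound protein holds back translation, and in the 3′ untranslated region it protects the mRNA from decay. In endothelium, heme oxygenase-1 and ferritin are known as genes that respond to oxidants and to heme.

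The hairpins are shown because their place, in the 5′ or the 3′ untranslated region, sets which way iron regulatory proteins act on an mRNA. Transcripts of GENCODE release M21 (GRCm38) were searched for a C, a stem of 5 base pairs with G-T pairs allowed, and the loop CAGTGN with any base but G at its end. Of the 10 genes 4 held a match, with 7 matches in all. Each is given below 5′ to 3′ as DNA letters, with the loop of 6 bases in capitals.
Fth1: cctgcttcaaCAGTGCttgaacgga
Ftl1: cttgcttcaaCAGTGTttgaacgga
Slc40a1: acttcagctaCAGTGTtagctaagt
Tfrc 1: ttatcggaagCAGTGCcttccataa
Tfrc 2: ttatcgggagCAGTGTcttccataa
Tfrc 3: atatcggagaCAGTGAtctccatat
Tfrc 4: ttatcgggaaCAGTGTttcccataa

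The first 3 lie in 5′ untranslated regions, at chr19:9982734-9982758 on the plus strand for Fth1, chr7:45459781-45459805 on the minus strand for Ftl1, and chr1:45925467-45925491 on the minus strand for Slc40a1. All 4 matches of Tfrc lie in its 3′ untranslated region on the plus strand of chromosome 16, from chr16:32631221-32631245 to chr16:32631712-32631736. Among 13297 listed genes with a coding transcript, 21 (0.158%) held a match in a 5′ untranslated region and 75 (0.564%) in a 3′ one. Slc11a2, known for a 3′ element that departs from the common form, had no match to this pattern, which says only that these letters are not in its annotated transcripts.

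Depth over the listed genes was 35969965 reads for control, 35005089 for glucose oxidase and 40212212 for the library that also had Et2HOBA. Where 3 values stand without labels below, they follow this order. The glucose oxidase reads were recovered as whole numbers from the deposited log2 differences, as described under processing. Reads were divided by size factors over the 3 libraries, and log2 ratios were taken after adding 10 to each normalized count, so changes of low genes are understated. Each group has 1 library, so no difference has a replicate check and conditions could not be tested. The 95% intervals are exact (Clopper-Pearson), computed from the reads of each pair of libraries, and cover counting error only, since reads without molecular identifiers are not independent molecules. As a description, the limit for calling a gene was set at 1 log2 unit in either direction.

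All 8 endothelial markers examined were present, at 1688 reads or more, and their summed level was 8266, 5156 and 4600 CPM, reads scaled to the total of the listed genes. They did not move alike: Vwf had 46607, 21567 and 12545 reads and Tek 6786, 2877 and 1688, while Emcn had 5373, 6333 and 7936. In bulk RNA, fewer cells of a type and less RNA per cell cannot be told apart. The leukocyte markers Ptprc and Cd3e were not among the listed genes. Of the erythroid list only Alas2 was listed, at 8, 4 and 4 reads, and no globin. Smooth muscle markers summed to 36 to 90 reads. Among fibroblast markers Col1a2 and Dcn were not listed and Col1a1 had 23 to 30 reads, but Pdgfra had 107, 1325 and 2821. Of 5 macrophage markers Adgre1 and Cd163 were not listed, Csf1r had 6 to 12 reads and Lyz2 76 to 186, while Cd68, a lysosomal protein, had 8215, 17067 and 27799. The part of these marker differences in the results was not tested.

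Of the 10 genes 6 were higher in both treated libraries than in control, and the other 4 stayed close to it. After glucose oxidase 4 of the 10 lay past the limit, all higher: Slc40a1, Hmox1, Fth1 and Blvrb. Over all listed genes 12.7% lay past the limit in this comparison (4.07% on the higher side), and 9.3% of protein-coding genes did. With Et2HOBA 6 of the 10 lay past it, all higher, where Tfrc and Ftl1 joined the first 4; the share was 14.7% over all genes (6.66% on the higher side) and 16.6% over protein-coding genes. Median log2 ratios of the 10 genes were 0.81 after glucose oxidase and 1.24 with Et2HOBA, against -0.01 and 0.00 over all genes. Both comparisons use the same control library.

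**Figure D1:**
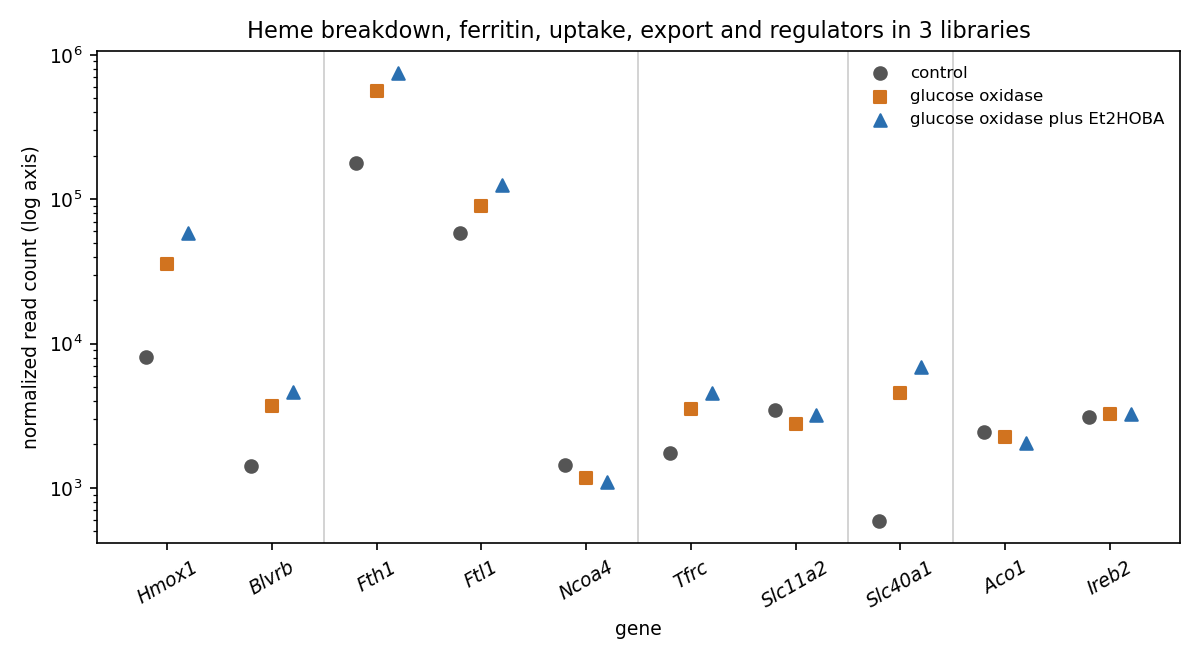
Normalized read count (log axis) of the 10 genes in the 3 libraries, 1 point per library, ordered by role: heme breakdown, ferritin and its receptor, uptake, export, regulators. Hmox1, Blvrb, Fth1, Ftl1, Tfrc and Slc40a1 step up from control to glucose oxidase to glucose oxidase plus Et2HOBA, while Ncoa4, Slc11a2, Aco1 and Ireb2 stay within 1.5-fold of control.

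Hmox1 (ENSMUSG00000005413.8, chromosome 8, 75093621 to 75100589) encodes heme oxygenase-1, the inducible enzyme that opens the heme ring. Its reads numbered 8325, 34083 and 60660. The control library was the lowest and the library with Et2HOBA the highest. Its normalized count was 4.38-fold control after glucose oxidase (95% interval 4.27 to 4.48) and 7.24-fold with Et2HOBA (7.08 to 7.41). By reads Hmox1 ranked 852 among the listed genes in control and 82 and 30 in the treated libraries. Hmox2, the constitutive heme oxygenase, had 5717, 4567 and 5093 reads and did not follow it. The ratio of Hmox1 to Hmox2 in reads per base of annotated exon was therefore 1.84, 9.45 and 15.1 in the 3 libraries, a quantity that no scaling between libraries enters.

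Blvrb (ENSMUSG00000040466.16, chromosome 7, 27447978 to 27466144) encodes biliverdin reductase B, an NADPH-dependent reductase of biliverdin and flavins. It had 1453, 3588 and 4764 reads, so the libraries stood in the same order as for Hmox1. Against control this was 2.64-fold (2.48 to 2.81) after glucose oxidase and 3.26-fold (3.07 to 3.46) with Et2HOBA. Blvra, the main biliverdin reductase of adult tissue, had 1291, 1082 and 1010 reads, a log2 ratio of -0.16 and -0.36 to control. Per base of exon Blvrb and Blvra stood at 0.990 to 1 in control, and this ratio stood at 2.92 and 4.15 in the treated libraries. Within both enzyme pairs, then, 1 member was past the limit and its partner was not.

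Fth1 (ENSMUSG00000024661.7, chromosome 19, 9980598 to 9985098) encodes the ferritin heavy chain, which oxidises iron as it enters the shell. Its reads numbered 183445 in control against 542914 after glucose oxidase, and reached 776210 with Et2HOBA. The gene ranked 2 by reads in control and 1 in both treated libraries, and its share of all reads was 0.510%, 1.55% and 1.93%. Against control it was 3.16-fold (3.15 to 3.18) and 4.20-fold (4.18 to 4.23) higher. The hairpin shown above lies in 4 annotated Fth1 transcripts.

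Ftl1 (ENSMUSG00000050708.16, chromosome 7, 45457944 to 45459884) encodes the ferritin light chain, which helps the iron core to form. It had 60311, 87241 and 130532 reads in the 3 libraries, again lowest in control and highest with Et2HOBA. Its fold over control was 1.55 (1.53 to 1.56) after glucose oxidase, under the limit, and 2.15 (2.13 to 2.17) with Et2HOBA. With total-count scaling the log2 ratio with Et2HOBA was 0.95, under the limit. Counted reads of the heavy-chain and light-chain mRNAs therefore did not move in proportion. Per base of exon the ratio of Fth1 to Ftl1 was 1.17 in control and 2.40 and 2.30 in the treated libraries. Over the longest annotated transcripts in place of all exons it was 1.43, 2.92 and 2.79. The ratio also depends on how reads of shared Ftl1 stretches, described next, were assigned in each library.

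Ftl1 has many retrotransposed copies, and 78.9% of the 50-base stretches of its longest transcript occur in another gene, against 2.88% for Fth1 and 0% for the other 8 genes. Reads of such stretches can be placed on more than 1 gene. The 9 listed genes that share a stretch with Ftl1 summed to 3866, 2239 and 8181 reads. Per 1000 Ftl1 reads that is 64.1, 25.7 and 62.7. In the glucose oxidase library 8 of the 9 were lower than in control, such as Gm12164 with 351, 29 and 797 reads and Gm15590 with 826, 303 and 1709. With Et2HOBA 8 of the 9 were higher than in control.

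Processed pseudogenes in general were also low in the glucose oxidase library: of 2110 listed, 841 (39.9%) lay past the limit on the lower side and 8 (0.38%) on the higher side. With Et2HOBA 52 (2.46%) were lower and 78 (3.70%) higher, with a median log2 ratio of 0.13 to control. The 9 genes that share a stretch with Ftl1 stood at 1.07 as a sum, which is not the same measure as a median. Of their 8181 reads with Et2HOBA, 4999 were those of Ftl1-ps1, annotated as protein-coding. Another of the 9, Gm26445, is annotated as a microRNA. How shared reads were assigned in each library is not given in the sources used here. Summing Ftl1 with these 9 genes gave log2 ratios of 0.58 and 1.10 against 0.63 and 1.10 for Ftl1 alone, since the 9 hold few of the reads. The sum holds only counted reads, so it cannot show whether shared Ftl1 reads were left out, or left out alike in each library. For Fth1 1 listed copy shares a stretch, Gm6977 with 362, 262 and 1437 reads, and the sum left the log2 ratios at 1.66 and 2.07.

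**Figure D2:**
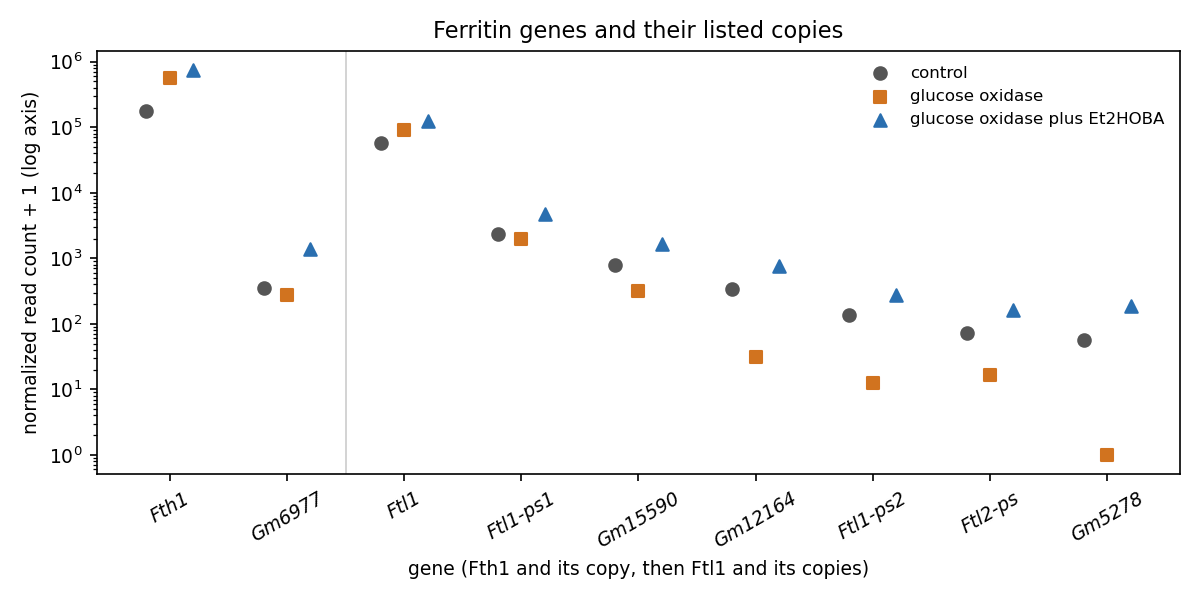
Normalized read count plus 1 (log axis) of Fth1, Ftl1 and those listed genes that share a 50-base stretch with them and had at least 50 control reads, 1 point per library. Fth1 and Ftl1 are lowest in control, whereas each copy drawn is lowest in the glucose oxidase library and highest with Et2HOBA.

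Ncoa4 (ENSMUSG00000056234.15, chromosome 14, 32159865 to 32179855) encodes the receptor that carries ferritin to the lysosome for breakdown. It had 1485, 1131 and 1137 reads, highest in control. The normalized count was 0.814 of control (0.753 to 0.880) after glucose oxidase and 0.761 (0.704 to 0.822) with Et2HOBA, neither past the limit. Reads of Fth1 per read of Ncoa4 were 124 in control and 480.0 and 683 in the treated libraries.

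Tfrc (ENSMUSG00000022797.16, chromosome 16, 32608920 to 32632794) encodes transferrin receptor 1, which takes up transferrin-bound iron, and carries the 4 hairpins of the 3′ untranslated region shown above. It had 1801, 3376 and 4705 reads, lowest in control and highest with Et2HOBA. That was 2.00-fold control (1.89 to 2.12) after glucose oxidase and 2.60-fold (2.46 to 2.74) with Et2HOBA. The log2 ratio after glucose oxidase, 0.999, lay just under the limit, and it passed with a pseudocount of 1 or with TMM scaling. So the 3 genes with a match in the 5′ untranslated region and the 1 with matches in the 3′ untranslated region all had more reads in both treated libraries than in control.

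Slc11a2 (ENSMUSG00000023030.16, chromosome 15, 100387898 to 100425072) encodes the divalent metal transporter DMT1, which moves iron out of the endosome. With 3575, 2690 and 3301 reads it was lowest after glucose oxidase. The folds over control were 0.804 (0.765 to 0.846) and 0.917 (0.875 to 0.962), and the gene stayed within the limit in each comparison.

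Slc40a1 (ENSMUSG00000025993.10, chromosome 1, 45908068 to 45926523) encodes ferroportin, the iron exporter of the plasma membrane. Its 612, 4411 and 7103 reads gave the widest span of the 10 genes as a fold over control. Its normalized count was 7.70-fold control (7.08 to 8.40) and 11.5-fold (10.6 to 12.5). The log2 ratios of 2.92 and 3.51 ranked 43 and 50 from the top among all listed genes. In reads per base of exon Slc40a1 stood at 0.234 of Tfrc in control and 0.898 and 1.04 in the treated libraries. Over longest transcripts the ratios were 0.423, 1.63 and 1.88, so which of the 2 was higher after glucose oxidase depended on the gene model.

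Aco1 (ENSMUSG00000028405.9, chromosome 4, 40143081 to 40198338) encodes iron regulatory protein 1, which is a cytosolic aconitase when it holds an iron-sulfur cluster. It had 2510, 2184 and 2128 reads, or 0.930 (0.878 to 0.985) and 0.842 (0.795 to 0.893) of control. Ireb2 (ENSMUSG00000032293.8, chromosome 9, 54863789 to 54912530) encodes iron regulatory protein 2, which is destroyed when iron is plentiful. It had 3221, 3119 and 3350 reads, and the folds of 1.04 (0.985 to 1.09) and 1.03 (0.984 to 1.09) had intervals that include equal levels. Its log2 ratios of 0.05 and 0.05 turned to -0.01 and -0.10 with total-count scaling. The mRNAs of both regulators stayed within the limit in each comparison.

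**Figure D3:**
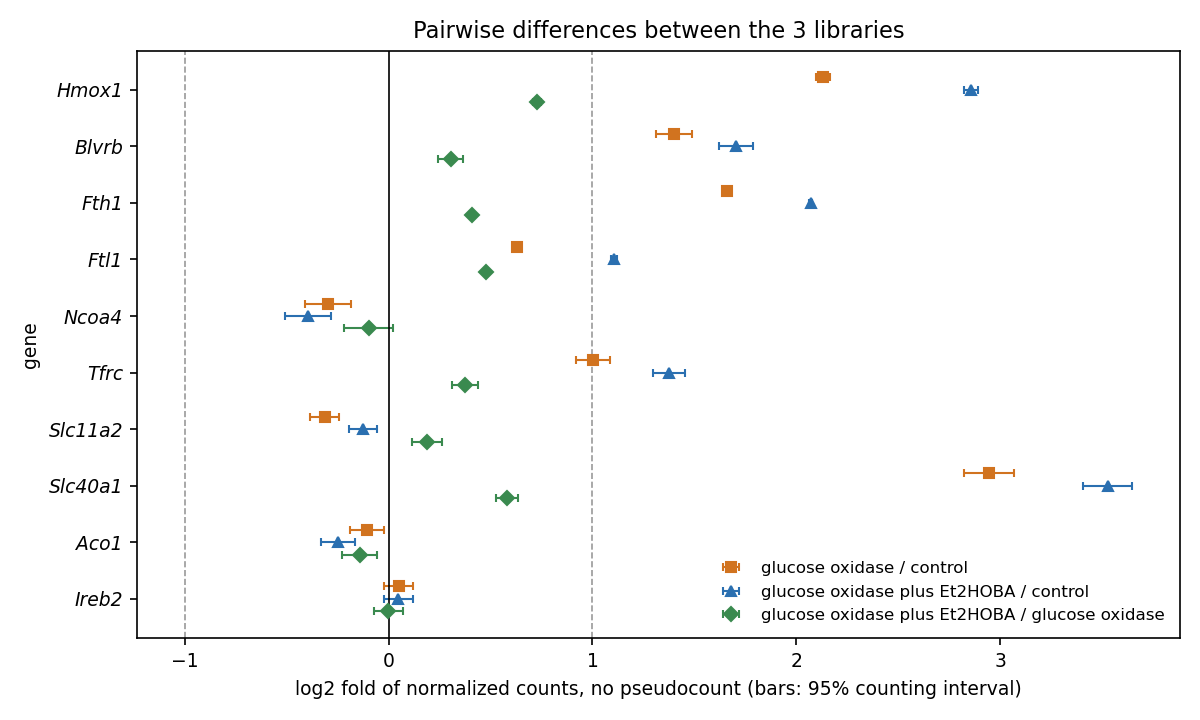
Log2 fold of normalized counts without a pseudocount, for glucose oxidase over control (squares), glucose oxidase plus Et2HOBA over control (triangles) and glucose oxidase plus Et2HOBA over glucose oxidase (diamonds), with bars for the 95% counting interval and dashed lines at 1 log2 unit. Slc40a1 and Hmox1 lie farthest right, and no diamond passes a dashed line.

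The pair of treated libraries, which differ by label in Et2HOBA, was then compared directly. Of 2110 processed pseudogenes, 959 lay past the limit on the higher side with Et2HOBA and 1 on the lower side. Which part of any difference in this pair came from Et2HOBA was not tested. None of the 10 genes passed the limit, against 8.55% of all listed genes and 3.32% of protein-coding ones. Hmox1 had the largest difference, at 1.65-fold (1.63 to 1.68), followed by Slc40a1 at 1.50-fold (1.44 to 1.55) and Ftl1 at 1.39-fold (1.38 to 1.40). Fth1 stood at 1.33-fold (1.32 to 1.33), Tfrc at 1.30-fold (1.24 to 1.35) and Blvrb at 1.23-fold (1.18 to 1.29). Slc11a2 was 1.14-fold higher (1.08 to 1.20) and Aco1 was 0.906 of the glucose oxidase level (0.853 to 0.962). For Ncoa4 and Ireb2, at 0.934 (0.860 to 1.02) and 0.998 (0.951 to 1.05), the intervals include equal levels. In each of the 6 genes higher than control, the library with Et2HOBA lay farther from control than the library without it. Over all listed genes the share past the limit on the higher side also rose, from 4.07% after glucose oxidase to 6.66% with Et2HOBA. How many of all genes lay farther from control with Et2HOBA was not counted. The size of these differences against the spread between cultures is not known.

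In the authors' deposited table for glucose oxidase against control, Slc40a1 had a log2 difference of 2.61, Hmox1 of 2.11, Fth1 of 1.66, Blvrb of 1.29, Tfrc of 0.93 and Ftl1 of 0.63. The authors' deposited table for the library with Et2HOBA gave these genes 3.38, 2.84, 2.07, 1.65, 1.34 and 1.10. The transformation behind each table shrinks low counts by its own constant, so Slc40a1, with the fewest control reads, differs most from the common scale.

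Levels of different genes were compared as normalized count per kilobase of annotated exon. In control Fth1 was the highest at 51242, followed by Ftl1 at 43613 and Hmox1 at 4607, and these 3 kept that order in every library. Slc11a2, Aco1 and Blvrb came next at 545, 541 and 506 in control, close enough that lengths of the longest transcript put Blvrb first of them. Ireb2 at 329, Tfrc at 282, Ncoa4 at 154 and Slc40a1 at 65.9 followed. With Et2HOBA Slc40a1 stood at 760 and had moved from the last to the fifth place, and Ncoa4 was last at 117. There is no spread over samples to set these neighbours apart.

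A list of 71 iron and heme genes, written with earlier results of these data known, placed the 10 among the rest of the pathway. Of these 67 were listed, and Ftmt, Trf, Hamp and Hjv were not. Leaving out the 10, 57 genes remained. After glucose oxidase 6 of the 57 lay past the limit on the higher side and 1 on the lower side. With Et2HOBA 12 were higher and 3 lower. That is 12.3% and 26.3% of the 57, beside 12.7% and 14.7% of all genes and 9.3% and 16.6% of protein-coding genes. The median log2 ratios of the 57 were 0.03 and -0.05. Between the treated libraries 3 of the 57 (5.26%) lay past the limit, Maff higher and Steap4 and Uros lower with Et2HOBA. The share was 8.55% of all genes and 3.32% of protein-coding genes, and the pathway genes are protein-coding.

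**Figure D4:**
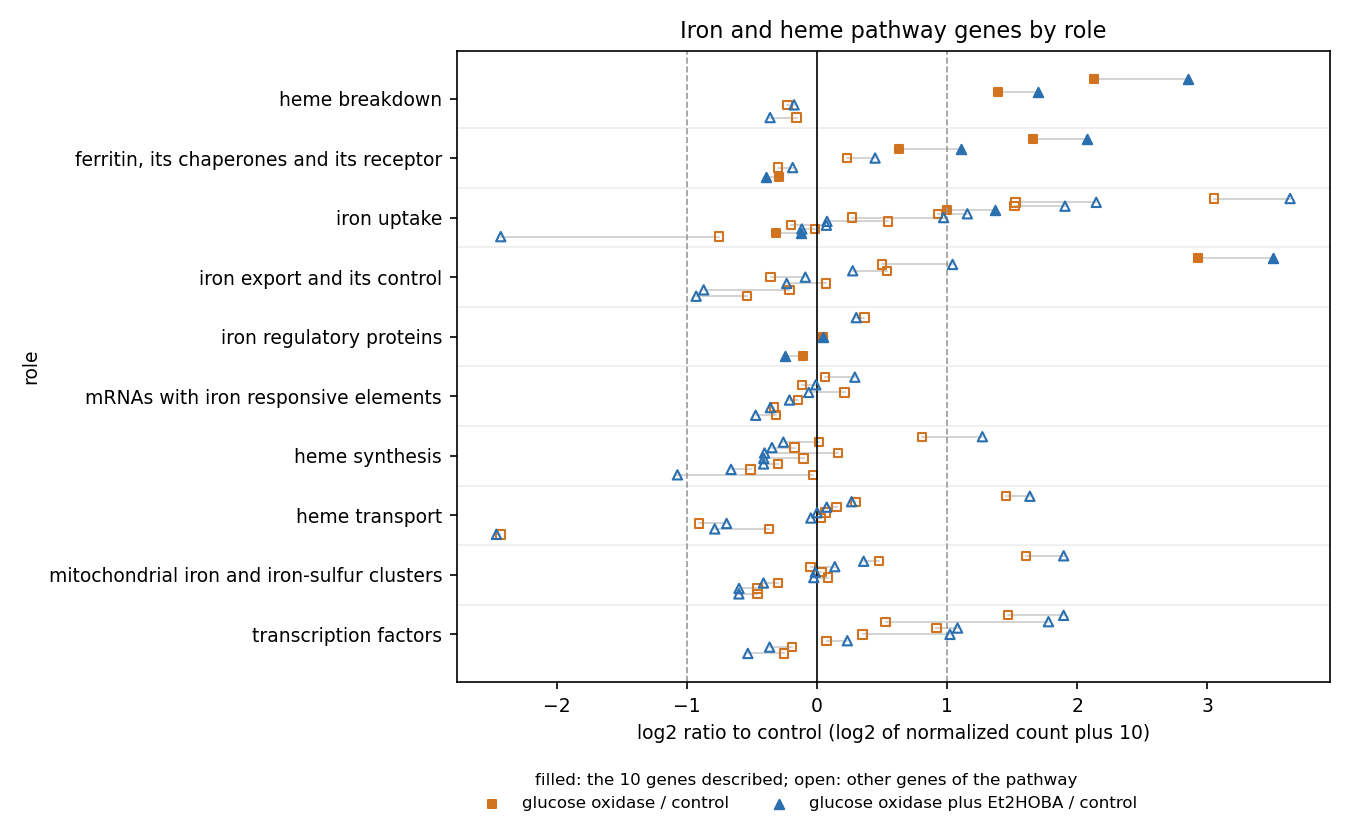
Log2 ratio to control (log2 of normalized count plus 10) of 67 pathway genes by role, after glucose oxidase (squares) and with Et2HOBA (triangles); filled symbols are the 10 genes described and dashed lines stand at 1 log2 unit. Uptake genes spread from Steap4 at -2.43 to Steap1 at 3.64 with Et2HOBA, while iron regulatory proteins and other hairpin mRNAs stay inside the dashed lines.

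Among genes of iron uptake 3 of 11 lay past the limit after glucose oxidase and 6 of 11 with Et2HOBA, 5 of them higher. Over all genes the shares were 12.7% and 14.7%. Steap1, a member of a family of membrane metalloreductases, had 281, 2252 and 3632 reads, or 8.57-fold (7.56 to 9.73) and 12.8-fold (11.4 to 14.6) control. Steap3, the endosomal ferrireductase of the transferrin cycle, had 23, 80 and 138 reads; its log2 ratio after glucose oxidase, 1.52, was 0.88 with a pseudocount of 50. Steap4, of the same family, went the other way with 329, 179 and 53 reads, a log2 ratio of -2.43 with Et2HOBA. Slc39a14, an importer of zinc and non-transferrin iron chosen here after its values were seen, had 512, 1390 and 1959 reads.

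Among genes of export and its control, Slc40a1 alone of 7 lay past the limit after glucose oxidase. With Et2HOBA Bmp6 passed it too, from 0 control reads. The shares over all genes were 12.7% and 14.7%. Bmp6, a ligand that sets hepcidin production, had 0, 4 and 11 reads, and with a pseudocount of 50 its log2 ratio with Et2HOBA was 0.28, within the limit. Hephl1, a ferroxidase, had 14, 10 and 3 reads, or 0.213 of control with Et2HOBA (0.0392 to 0.763). For both genes the counting interval with Et2HOBA against control excludes equal levels. Hfe, a partner of transferrin receptor, had 310, 197 and 159 reads and a log2 ratio of -0.93 with Et2HOBA. The ferritin iron chaperones Pcbp1 and Pcbp2 had log2 ratios of -0.30 and 0.23 after glucose oxidase and -0.19 and 0.45 with Et2HOBA.

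Fbxl5, the iron sensor that marks iron regulatory protein 2 for destruction, was 1.29-fold (1.23 to 1.35) and 1.23-fold (1.18 to 1.29) control. None of 6 further mRNAs known for such a hairpin passed the limit: Epas1, encoding HIF-2alpha, had ratios of -0.31 and -0.47, Cdc42bpa, a kinase, 0.06 and 0.29, and Alas2 had at most 8 reads. Over all genes 12.7% and 14.7% lay past the limit against control.

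Genes of heme synthesis lay nearer to control than Hmox1. None of 8 lay past the limit after glucose oxidase, beside 12.7% of all genes. With Et2HOBA 2 of 8 lay past it against control, Cpox higher and Uros lower, beside 14.7% of all genes. In that comparison 7 of 8 had a ratio below 0, beside 9146 of 18287 listed genes, and the median of the 8 was -0.41. Cpox, coproporphyrinogen oxidase, was the exception at 703, 1157 and 1722 reads, a log2 ratio of 1.27 with Et2HOBA against control. Uros, uroporphyrinogen III synthase, had 636, 583 and 299, a log2 ratio of -1.07 with Et2HOBA against control and -1.04 against glucose oxidase alone. On the deposited scale these were -0.96 and -0.40, within the limit.

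In heme transport, Slc48a1, which moves heme from the lysosome to the cytosol, had 4725, 12122 and 14800 reads and was 2.74-fold (2.65 to 2.84) and 3.11-fold (3.01 to 3.22) control. Flvcr2, a transporter first described for heme and later for choline, had 178, 23 and 24 reads. Abcg2, an exporter of porphyrins and drugs, had 3015, 2182 and 1756. In heme transport 2 of 8 genes lay past the limit in each comparison with control, beside 12.7% and 14.7% of all genes.

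Promoters from RefSeq (GRCm38.p6) were matched by symbol for 7 of the 10 genes and searched over 250 bases before the start site, on both strands, for the core of the antioxidant response element, TGANNNNGC. Hmox1, Slc40a1 and Slc11a2 had no promoter matched by symbol and were not searched. Over all 32851 promoters 35.2% held a match. Both promoters of Blvrb, 2 of 3 of Ncoa4 and the 1 of Aco1 did, and those of Fth1, Ftl1, Tfrc and Ireb2 did not. A match is a description of letters and not of a bound site, and known enhancers of such genes can lie far outside this window.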

How the data were processed

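RNA of 3 libraries (control, glucose oxidase, glucose oxidase plus Et2HOBA) was used. Per the submitters' processing notes, STAR, featureCounts and mm10 were used; versions, strand setting and treatment of multiply aligned reads are not given in the sources used here. Per the file headers, the authors deposited raw read counts of control and glucose oxidase plus Et2HOBA, with log2-scale normalized values and their log2 difference. For glucose oxidase against control the authors deposited symbols and a log2 difference only, and for the treated pair 7 genes, none of them a member. The log2 values follow an arcsinh transformation of square-rooted counts. Inverting it with the control counts gave glucose oxidase reads that were whole, to within 0.01, in 100% of 18287 genes; with 1 read added to each control count, 3.30% were whole. Symbols matched directly for 18258 genes, 17 matched through dates a spreadsheet had made, and 12 were placed by whole reads.

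Size factors were medians of ratios over 3 libraries (1.03, 0.965, 1.04), with a pseudocount of 10 and a limit of 1. No count model was fitted, since 1 library per group gives no spread; the count tests that replicated counts would allow were not run. The floor was 3 reads. Shared 50-base stretches and exon lengths came from GENCODE release M21. Recovery and intervals were tested on simulated data. Python 3.11.15, scipy 1.17.1 and edgeR 4.0.16 (TMM scaling only) were used. All members are named; of the other pathway genes, at most 3 per role, those with the largest ratio with Et2HOBA against control; some of these are not reported here. Nfe2l2, Bach1, Keap1, Mafk, Slc39a14, the ferritin copies and the cell markers given singly were added after their values were seen. Members and lists were chosen with earlier results of these data known. Alternatives were 2 scalings, 2 pseudocounts, a filter on low counts, genes with no shared stretch, the deposited scale, 2 limits and sums over ferritin copies.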

Additional observations from a re-analysis of the deposited data

How the results depend on the processing

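Of 216 values of the 10 genes under alternatives, 184 moved by less than their counting interval and 32 moved by more. The 184 include every value under the low-count filter and among genes with no shared stretch. Those 2 settings leave a gene's ratio unchanged by construction, so they cannot show whether it would move. No value past the limit changed sign, and only Ireb2, near 0 in all 3 comparisons, changed sign at all. Total-count scaling put the median of all genes at -0.06, -0.13 and -0.08 in the order glucose oxidase against control, glucose oxidase plus Et2HOBA against control, and the treated pair; TMM put it between -0.01 and 0.00. The count of the 10 genes past the limit was 3 to 5 and 4 to 6 against control under the other scalings, pseudocounts, filters and the deposited scale, and 0 between the treated libraries. The share of all genes past the limit ran from 4.01% (deposited scale) to 23.2% (pseudocount 1) after glucose oxidase, from 9.27% (pseudocount 50) to 24.6% (pseudocount 1) with Et2HOBA, and from 0.24% (deposited scale) to 18.1% (pseudocount 1) between the treated libraries. A limit of 2 left 2 and 3 of the 10, and 4 and 7 of the 67 pathway genes, against control, beside 2.88% and 3.80% of all genes. A limit of 0.5 gave 24 pathway genes after glucose oxidase (33.8% of all genes), and 2 of the 10 and 12 pathway genes between the treated libraries (25.5%). The pathway count between the treated libraries, 3 at the limit of 1, was 6 when the pseudocount was 1. The genes that joined were Tfr2 (2 and 10 reads in the treated libraries), Bmp6 (4 and 11) and Hephl1 (10 and 3). The count was 0 on the deposited scale, where Maff, Steap4 and Uros stood at 0.82, -0.37 and -0.40, and 0 at a limit of 2. Another limit changes a count by construction; for the pseudocount and the deposited scale the cause was not tested. Fewer genes are tested without shared stretches (8 of the 10). The sum with ferritin copies by shared stretch was chosen after seeing the data. With no replicate, no library could be left out. No paired analysis was possible because each group has 1 library.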

Other observations

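Among transcription factors of the heme and oxidant response, 1 of 7 lay past the limit after glucose oxidase and 4 of 7 with Et2HOBA, all higher, beside 12.7% and 14.7% of all genes. With total-count scaling Mafg and Mafk, at 0.93 and 0.87 with Et2HOBA, lay within the limit, which left 2 of 7, and on the deposited scale Mafk with Et2HOBA and Bach2 after glucose oxidase (0.78) did too, which left 3 and 0 of 7. Bach2, a repressor related to the heme sensor Bach1, had 75, 211 and 309 reads in the order used above. Maff, a small Maf protein that pairs with such factors, had 840, 1137 and 2926 reads and was 2.39-fold (95% interval 2.23 to 2.56) higher with Et2HOBA than with glucose oxidase alone. Mafg, another, had 4648, 8225 and 9901. The mRNAs of Nfe2l2 (NRF2), which drives Hmox1 and ferritin genes in many cells, and of its inhibitor Keap1 had ratios of -0.19 and -0.25 after glucose oxidase and -0.36 and -0.53 with Et2HOBA. Bach1, which represses Hmox1 until heme binds it, had 2371, 2334 and 2807 reads.

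Beside shares of 12.7% and 14.7% over all genes against control, only Slc25a37 of 8 genes of mitochondrial iron and iron-sulfur clusters passed the limit. This gene encodes mitoferrin-1, which carries iron into mitochondria, and had 1349, 3858 and 5079 reads, or 3.06-fold (2.87 to 3.26) and 3.74-fold (3.52 to 3.98) control. Iscu, the scaffold on which clusters are built and a gene with 14.0% of its 50-base stretches in another gene, had log2 ratios of -0.46 and -0.60.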
